A study of Rattus norvegicus with 12 samples.

Results

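The genes described here are the microRNA genes that gave no read in any of 12 rat liver small RNA libraries. They were chosen by their values: a row of the deposited table had to be 0 in all 12 value columns. Rows of the large microRNA cluster region of chromosome 6, rows of a fixed list of microRNA numbers and let-7 rows were left out whatever their values. Of 444 rows, 103 were at 0 throughout, 17 of these were left out, and 86 remained. They are 82 microRNA genes, of 432 in the table, and 4 rows with names of other kinds (Gm22953, AABR07057353.2, AABR07015531.1 and AABR07015838.2). Over all 432 microRNA genes 22.9% were at 0 in every library, and over the 283 that the rule keeps 29.0% were. Since the zeros chose the genes, these shares are descriptions and carry no test.

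The study gave male Sprague-Dawley rats (Jcl:SD), an outbred laboratory stock, oral doses for 5 days from 7 weeks of age. The Control group received vehicle (sterile distilled water). The CAF group received caffeine, an adenosine receptor antagonist, at 120 mg/kg, and the DEX group dextromethorphan hydrobromide monohydrate, a cough suppressant, at 100 mg/kg. The CAF+DEX group received both at those doses, and liver was taken 1 h after the last dose. Each group had 5 rats, and 3 libraries per group were analysed here. Which rat each library came from is not labelled, so a p-value measures only the spread between these libraries, which may be technical. Library numbers (1, 3 and 4 in Control, for example) are those of the column headers.

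A microRNA gene is transcribed into a long primary RNA whose hairpin is cut out in the nucleus and trimmed in the cytoplasm to a short mature strand. Bases 2 to 8 of the mature strand, the seed, pair with target messenger RNAs. Many microRNA genes lie in introns or in runs that share a primary transcript, and some loci have a second annotated hairpin on the opposite strand. Liver is dominated by a small set of hepatocyte microRNAs, while many others are known from brain, germ cells, muscle or early embryo.

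The sequences below show the silent genes that the results turn on. The first set holds silent genes that lie opposite another annotated hairpin, each followed by the mature strand of that hairpin that it overlaps. All are RefSeq sequences (build GRCr8), written 5′ to 3′ with the seed in capitals.
miR-31b of Mir3554, silent: cUAUGCCAgcaucuugccu
miR-31a-5p of Mir31, opposite strand: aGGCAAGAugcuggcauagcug
miR-3549 of Mir193a, silent: aUCUUGCCcgcaaagaccc
miR-193a-5p of Mir193, opposite strand: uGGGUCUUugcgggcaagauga
miR-218b of Mir3565, on the strand of the silent row: cAUGGUUAgaucaagcacaa
miR-218a-5p of Mir218-1 and Mir218-2, opposite strand: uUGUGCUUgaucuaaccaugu
miR-9b-3p of Mir3597-2 and Mir3597-3, silent: aUACAGCUagauaaccaa
miR-9a-5p of Mir9-2 and Mir9-3, opposite strand: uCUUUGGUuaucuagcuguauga

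The second set holds silent genes with a measured gene of the same or a similar seed, or with several silent relatives. The miR-196 strands differ by single bases, while miR-105 and miR-291a-3p are shown for their shared seed.
miR-196a-5p, silent: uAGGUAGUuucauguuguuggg
miR-196b-5p, measured: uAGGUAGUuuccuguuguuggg
miR-196c-5p, measured in 1 library: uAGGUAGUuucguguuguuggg
miR-216b-5p, silent: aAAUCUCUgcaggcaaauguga
miR-216a-5p, measured: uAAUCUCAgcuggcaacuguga
miR-105, silent: cAAGUGCUcagaugucuguggu
miR-291a-3p, measured: aAAGUGCUuccacuuugugugcc
miR-295-5p of Mir295-1 and Mir295-2, silent: aCUCAAAUguggggcacacuucu
miR-344b-5p of the 3 Mir344b genes, silent: aGUCAGGCugcugguuauauuc
miR-344g, silent: aGUCAGGCuccuggcaggaguc

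The third set holds silent genes of brain and germ cell loci.
miR-448-3p: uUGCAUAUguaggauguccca
miR-764-3p: gAGGAGGCcauaguggcaacugu
miR-1912-3p: cACAGAACaugcagugaga
miR-1298: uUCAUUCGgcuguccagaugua
miR-592: aUUGUGUCaauaugcgaugaugu
miR-741-3p: aAAGAUGCcacgcuauguagau
miR-880-3p: uACUCCAUucauucugaguaga
miR-881-3p: uAACUGUGgcauuucugaauag

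How low a silent gene must be is set by depth. The libraries held 2863572 to 3418568 recovered reads each, 38003483 in all. A count of 0 in 1 library allows up to 3 reads, which is 0.878 to 1.05 per 1000000 reads. Over the 3 libraries of a group the limit was 0.308 per 1000000 reads in Control, 0.334 in CAF, 0.314 in DEX and 0.307 in CAF+DEX, and over all 12 libraries it was 0.0789. These limits cover counting error only. The tissue check gave 14.05 to 16.4% of reads to Mir192, a hepatocyte microRNA. The blood cell microRNA Mir142 took 0.786 to 1.499% and the erythroid Mir451a 0.00983 to 0.01999%. In bulk liver, fewer cells of a type and less RNA per cell cannot be told apart.

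The number of genes without a read was compared between the groups, as the series asks how the drugs, alone and together, change liver microRNAs. The silent genes add the same number to every library, so this count varies only through the other genes. The Control libraries had 166, 167 and 174 microRNA genes at 0, with a mean of 169 ± 4.36 (SD, n = 3). The CAF libraries had 176, 171 and 170, with a mean of 172.3 ± 3.21. The DEX libraries had 175, 167 and 168, with a mean of 170.0 ± 4.36, and the CAF+DEX libraries 179, 165 and 165, with a mean of 169.7 ± 8.08. All 4 groups overlapped, and CAF+DEX held both the highest and the lowest library. An exact permutation test on the variance of the group means, over all 369600 assignments of the libraries to the 4 groups, gave p = 0.862. It asks for any difference among the 4 groups, in no set direction. The shallowest library, CAF library 1 with 2863572 reads, had 176 genes at 0, and the highest count, in CAF+DEX library 1, came at 3145320 reads.

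**Figure D1:**
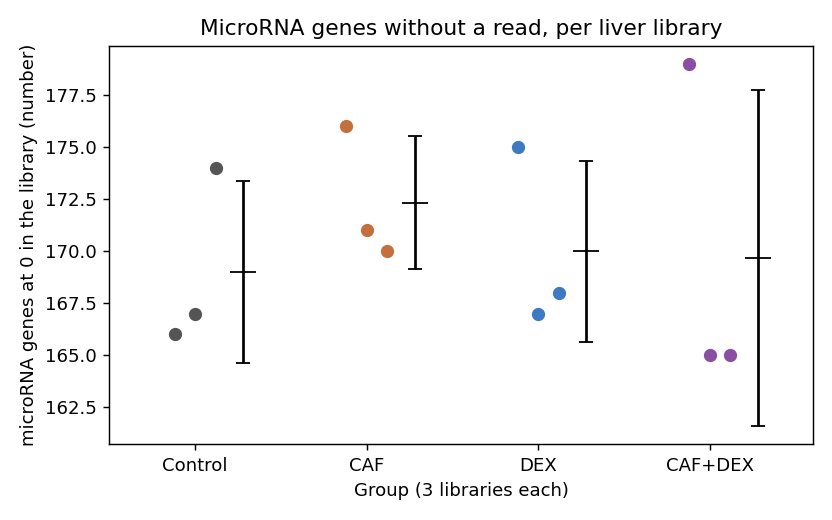
Number of microRNA genes at 0 (y axis) in each library, by group (x axis). Points are libraries, and the black mark and bar beside them give the mean and SD of 3 libraries. The libraries span 165 to 179 genes, and the 4 groups overlap.

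Within a single group more genes were at 0 in all 3 libraries: of the 283 genes that the rule keeps, 110 in Control, 107 in CAF, 112 in DEX and 112 in CAF+DEX. Of these, 28, 25, 30 and 30 had a read in another group. No test was made of such genes one by one, since their reads are too few.

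A first set of silent genes lay opposite another hairpin. Of the 71 silent microRNA genes matched to a RefSeq hairpin, 14 (19.7%, exact 95% interval 11.2 to 30.9%) overlapped a RefSeq microRNA gene on the other strand. Among microRNA genes above 0 in at least 1 library, 14 of 274 matched did so (5.11%, interval 2.82 to 8.42%), and among those that the rule keeps 5.63% did. No test is given, since genes are not replicates. In the 36 pairs found over the whole table, 0 had both genes listed, and the listed row was the longer of the pair in 35. The exception is Mir214, of 110 bases, opposite Mir3120, of 117 bases. In all 14 pairs with a silent gene the silent row was the longer. The other gene of each pair is not analysed here, and no 2 rows of the table overlapped (0 overlaps).

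Several of these silent genes face hairpins known for activity in particular tissues. Mir3597-1, Mir3597-2 and Mir3597-3 face the 3 genes of miR-9a, a microRNA of neural progenitors and neurons. Mir3597-1 lies on chromosome 2 from 173677130 to 173677237, Mir3597-2 on chromosome 2 from 14197711 to 14197828, and Mir3597-3 on chromosome 1 from 133440038 to 133440152 (rn7, as are all positions here). In the latter 2, all 18 bases of miR-9b-3p lie opposite miR-9a-5p, as printed above. Mir3546 (chromosome 15, 28425554 to 28425669) faces Mir208a, in the cardiac myosin gene Myh6, and Mir3571 (chromosome 18, 1887526 to 1887636) faces Mir1, the microRNA of striated muscle. Mir3554 (chromosome 5, 103599032 to 103599149) faces Mir31, an epithelial microRNA, and the 19 bases of its miR-31b all lie opposite miR-31a-5p.

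Others face hairpins whose neighbours were well measured. Mir3575 (chromosome 4, 157523652 to 157523766) faces Mir200c and was at 0 in 12 of 12 libraries. Mir141, 320 bases away on the strand of Mir200c, had 358.8 to 798 reads per library. Mir3548 (chromosome 5, 166648481 to 166648600) faces Mir200a and was also at 0. Its neighbours on the other strand, 672 and 938 bases away, had 990.0 to 2530 reads per library (Mir200b) and 630.0 to 1369 reads (Mir429). All 3 belong to the miR-200 family, which marks epithelium. Mir3560 (chromosome X, 15255308 to 15255419) faces Mir501, inside the chloride channel gene Clcn5. Mir362, 629 bases away on the other strand, had 102 to 171 reads per library. Mir532, on that strand but more than 1 kb away (15247315 to 15247393), had 5829 to 7463. Thus in these 3 loci the row on one strand was empty in every library while rows within 1 kb on the other strand were filled in every library. Whether reads were counted by strand is not stated for these files, and without strand reads of a gene and of its opposite partner cannot be told apart.

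Mir3596c (chromosome 1, 58677171 to 58677287) and Mir3596a (chromosome 8, 41908123 to 41908236) face let-7 hairpins. Mir3596c lies 81 bases from Mir99b, which had 1982 to 2599 reads per library, and 339 bases from Mir125a, with 13259 to 18765 reads. Both neighbours are on the opposite strand.

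In 2 of the 14 pairs the name of the silent row can mislead. The row named Mir218-1 (chromosome 14, 62709759 to 62709872) is 114 bases long and on the plus strand. RefSeq places Mir218-1, of 110 bases, on the minus strand and Mir3565, of 114 bases, on the plus strand, so the row has the strand and length of Mir3565. Over all 363 matched rows, 6 had another strand than RefSeq's gene of that name, and 5 of these were in pairs, each with the length of the partner. The mature strand of Mir218-1, miR-218a-5p, is the same as that of Mir218-2. Mir218-2 had 392, 415.5 and 410.5 reads in Control, 319, 371.5 and 364.5 in CAF, 255, 279 and 440.5 in DEX, and 424.5, 457.5 and 460.8 in CAF+DEX. All 12 libraries held the sequence, at 255 reads or more, while the row named Mir218-1 held none.

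The row named Mir193a (chromosome 10, 64672343 to 64672454) has the strand and length of RefSeq's gene Mir193a, whose mature strand is miR-3549. The mature strands called miR-193a-5p and miR-193a-3p belong to Mir193, on the other strand, which is not analysed here. The 19 bases of miR-3549 all lie opposite miR-193a-5p. The row is thus not that of the hairpin that yields the mature strands called miR-193a. The related Mir193b had 14 to 33 reads per library.

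Other silent genes lay close to genes with reads in every library, on either strand. Mir6326 (chromosome 10, 60306786 to 60306896) was silent 143 bases from Mir22, on the same strand and an abundant hepatocyte microRNA. Mir22 had 9753 reads in the lowest library, 11042 at the median and 12832 in the highest. Mir3570 (chromosome 13, 49485508 to 49485624) was silent 64 bases from Mir181b1, on the other strand, with 23.8 to 37.5 reads. Mir3556b (chromosome 13, 106570891 to 106570997) was silent 435 bases from Mir29b-3, also on the other strand, with 3635 to 4847 reads. In all, 21 of the 82 silent genes (25.6%) lay within 10 kb of another listed row, against 45.3% of the genes above 0 and 28.9% of those above 0 that the rule keeps.

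Some silent genes lie in genes known from neurons, which were picked here from the hosts of the silent rows. RefSeq places 5 silent genes, Mir3552, Mir764, Mir1912, Mir1298 and Mir448, inside Htr2c on its own strand. Htr2c encodes a serotonin receptor of neurons and choroid plexus. The 5 genes lie on chromosome X between 110676724 (start of Mir3552) and 110830029 (end of Mir448), and all 5 had 0 reads in 12 libraries. No 2 of their printed mature strands share a seed. Mir105 (chromosome X, 150438529 to 150438601) lies in Gabra3, a GABA receptor subunit gene, and Mir592 (chromosome 4, 56505280 to 56505375) in Grm8, a glutamate receptor gene. Mir6327 lies in Asic2, an acid-sensing ion channel gene, and Mir876 in Lingo2. Each lies on the strand of its host. A neuronal host did not go with silence throughout: Mir873, in Lingo2 with Mir876 and 19650 bases from it, had 7 reads in 4 libraries. Mir488 in Astn1, a gene of neuronal migration, had 7 reads in 5 libraries, and Mir153 in Ptprn2, a gene of secretory granules, had 107.5 reads with some in all 12. No share of silent genes among neuronal hosts was computed. The brain list given below had 1 silent gene of 19, with the limits stated there.

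Other hosts were of many kinds. In all, 27 of the 71 matched silent genes (38.0%) lay inside a protein-coding gene on its strand, against 34.3% of matched genes above 0 and 64 of 160 of those the rule keeps. These hosts include genes used by nearly all cells: Mir1956 lies in Eif4e (cap-binding translation factor), Mir343 in Ercc2 (DNA repair helicase), Mir7578 in Brd3 (chromatin reader), Mir207 in Dnaja1 (heat shock co-chaperone) and Mir678 in Prmt2 (arginine methyltransferase). Mir711 lies in Col7a1, a collagen gene of skin. Further host pairs were Mir761 in Nrdc, Mir6332 in Rere, Mir349 in Plxnb2, Mir628 in Ccpg1, Mir6330 in Nek11, Mir3547 in Baiap3, Mir3562 in Cep131, Mir1224 in Vwa5b2, Mir3571 in Mib1, Mir3550 in MAST1, Mir709 in Rfx1 and Mir1199 in Misp3. Messenger RNA of these hosts was not measured here. A silent gene on the opposite strand of a gene that RefSeq types as protein-coding, with no such host on its own strand, was found 14 times (19.7%), against 8.39% among genes above 0 and 10.6% of those the rule keeps. The 14 include Mir9-2hg (opposite Mir3597-2) and Mir100hgl (opposite Mir3596a), which are named as microRNA host genes. A host whose strand could not be compared entered neither host share, as for silent Mir568 in Zbtb20 and for Mir326 in Arrb1, which was above 0. Such genes stayed in the totals, so all these host shares are approximate.

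On chromosome X, 4 silent genes, Mir3551, Mir741, Mir880 and Mir881, lie between 145422221 and 145433382 in a locus known for expression in testis. Of the 14 rows within 100 kb of Mir741, 61 reads were found in all 12 libraries. CAF library 1 held 36 of them and DEX library 2 held 13. The other 2 CAF libraries had 0 and 3, the other 2 DEX libraries 0 and 2, the Control libraries 0, 0 and 4, and the CAF+DEX libraries 0, 2 and 1. CAF library 1 had reads on 9 of the 14 rows, and 4 of the rows (Mir742, Mir883, Mir471 and Mir871) had reads in that library only. This locus was summed after its values were seen.

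The miR-290 to miR-295 run on chromosome 1, known for its role in embryonic stem cells, had 1 silent gene among 7 rows within 2.16 kb. Mir295-1 (65962566 to 65962646) was at 0, and its copy Mir295-2, at 73279966 to 73280046 on the same chromosome, was also at 0. Both carry miR-295-5p. The other rows of the run had few reads in all: 3 for Mir294, 11.5 for Mir291b, 14 for Mir292, 13.5 for Mir291a and 1 for Mir290. Mir293 stood apart with 364.5. It had 33, 2.5 and 27 reads in Control, 22, 15 and 25 in CAF, 68, 77 and 23 in DEX, and 2, 39 and 31 in CAF+DEX. Every group overlapped the others, and the lowest libraries were Control library 3 and CAF+DEX library 1.

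**Figure D2:**
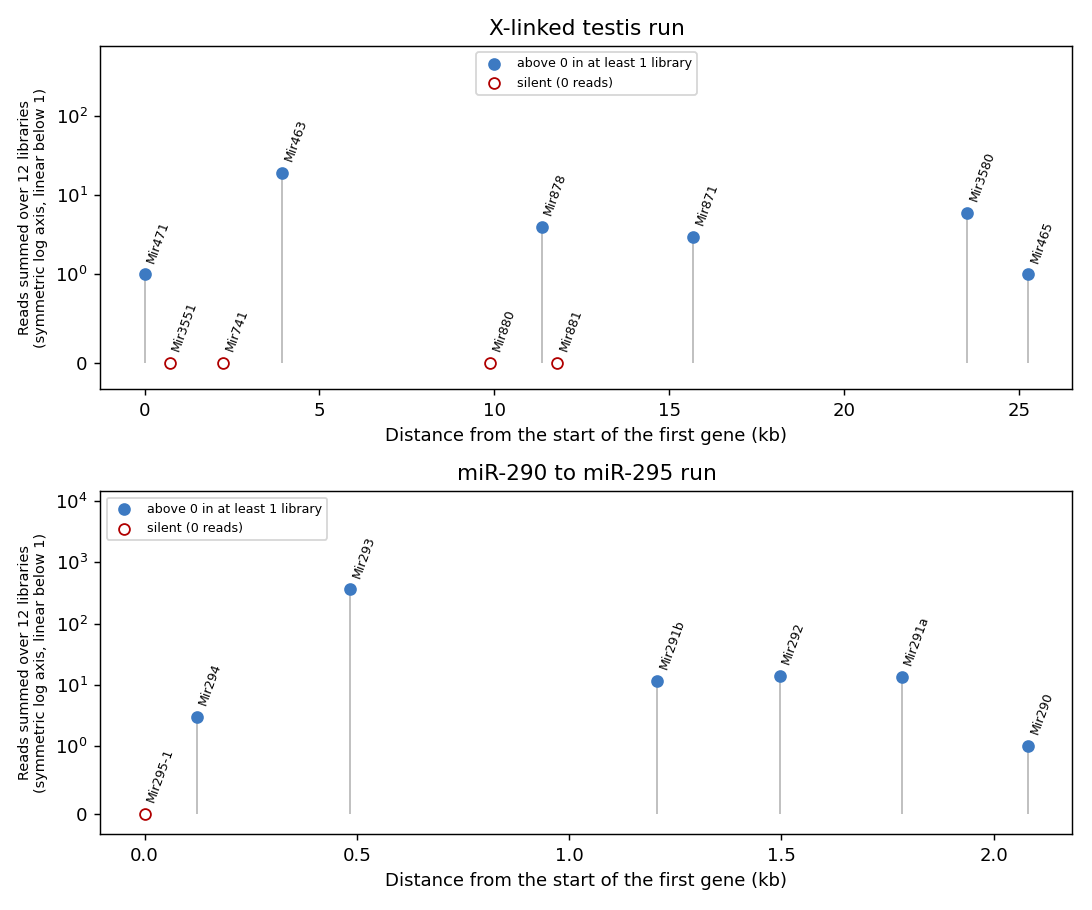
Reads summed over 12 libraries (y axis, symmetric log scale) for each listed gene against its distance in kb from the first gene's start (x axis), in the run around Mir741 and in the miR-290 to miR-295 run. Open red circles are silent genes. Genes around Mir741 have at most 19 reads, and Mir293 with 364.5 stands above its run.

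Of silent genes with measured relatives, Mir196a is the clearest. It lies in a Hox gene region (chromosome 7, 134110400 to 134110509) and its mature strand differs from that of Mir196b by 1 base (A12C) and from that of Mir196c by 1 base (A12G), counted from 1 at the 5′ end of miR-196a-5p. All 3 have the same seed, shown above. Mir196b had 8, 18 and 9 reads in Control, 9, 5 and 5.5 in CAF, 4, 7 and 10.5 in DEX, and 6, 7 and 2 in CAF+DEX. Mir196c had 2 reads, both in CAF+DEX library 1. A single-base neighbour was therefore read in every library, at low counts, and the silent gene in none.

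Mir216b, of a run known from pancreatic acinar cells (chromosome 14, 102513054 to 102513155), was silent. Its neighbour Mir216a, 10950 bases away, had 16 reads in 8 libraries, and Mir217 had 6 reads in 5. The mature strands of Mir216b and Mir216a differ at 4 positions (A1U, U8A, A11U and A17C), of which U8A lies in the seed. The 3 Mir344b genes on chromosome 1, between 114616603 and 114632705, were silent together, and so was Mir344g (115343044 to 115343122), which shares the seed of miR-344b-5p. Relatives of the same name were also near 0: Mir344a-2 had 1 read and Mir344i 0.12 of a read, both in CAF+DEX library 2.

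Seeds were mostly not shared with measured genes. The mature strands of the silent genes held 76 distinct seeds, and 4 of these occurred in a gene above 0. These were the seed of miR-218a-5p (with Mir218-2), that of miR-196a-5p (with Mir196b and Mir196c), that of miR-741-5p (with Mir376c, 36 reads in all) and that of miR-105 (with Mir291a, 13.5 reads). The other 72 had no listed gene above 0 among those matched, and genes not analysed here may hold them. Only 1 silent gene, Mir218-1, shared a whole mature strand with a measured gene, and there the row has the strand of Mir3565. Its seeds were thus counted by the name of the row, and that of miR-218b was not counted.

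Lists of tissue microRNAs, chosen by number, had few silent genes. In the brain list 1 of 19 listed genes was silent and 11 were above 0 in all 12 libraries. The silent one is the row named Mir218-1, which has the strand and length of Mir3565. Among the 11, the row named Mir219-2 likewise has the strand and length of its opposite partner, Mir2964. In the muscle and heart list 0 of 6 were silent, in the sensory and surface epithelium list 0 of 6, and in the pancreas and endocrine list 1 of 5 (Mir216b). In the embryonic list 2 of 8 were silent (both Mir295 genes), in the X-linked testis list 3 of 16 (Mir741, Mir880 and Mir881) and in the Hox-linked list 1 of 4 (Mir196a). The list of repeated genes of the Sfmbt2 type had 0 genes in the table. The lists hold no number that the rule leaves out, so their background is the 29.0% of the genes that it keeps. The brain share of 5.26% had an exact interval of 0.133 to 26.0%, which lies below that background but includes the 22.9% of all microRNA genes. Mir124-1, Mir124-2 and Mir124-3 count in it as not silent, on 0.66 of a read each over all 12 libraries. The brain share thus depends on taking fractional counts as above 0, and its interval was not recomputed with these rows as silent. The intervals of the other lists with genes in the table include 29.0%. These shares of 0 to 25% rest on 19 or fewer genes each, and no test was made of them. In the X-linked testis list 11 of 16 genes were above 0 in some libraries only, and the median gene had 3.5 reads over all 12.

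MicroRNA numbers are given in order of registration, so a high number marks a late entry. Of 236 genes numbered below 500, 18 were silent (7.63%, or 15.1% of the 119 that the rule keeps). The rule removes mainly low numbers, so both shares are given. Of numbers from 500 to below 1000, 14 of 63 were silent (22.2%, or 28% of those kept). Of numbers from 1000 to below 3000, 11 of 20 were silent (55.0%, or 57.9% of those kept). Of numbers from 3000 to below 4000, 24 of 66 were silent (36.4%, or 41.4% of those kept), and of 4000 and over 14 of 30 (46.7%, or 48.3%). Among kept genes above 0 the median over 12 libraries was 236.5 reads for numbers below 500 and 6.18 and 6 reads for the 2 highest bands. Single late entries had many more: Mir3559 had 189532 reads in all, Mir3545 32345 and Mir6324 654.3. Mir3545 lies opposite Mir203, which is not listed, and without strand the reads of these 2 genes cannot be told apart. For numbers of 3000 and over together, 38 of 96 were silent (39.6%, exact 95% interval 29.7 to 50.1%) and 14 were above 0 in every library.

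**Figure D3:**
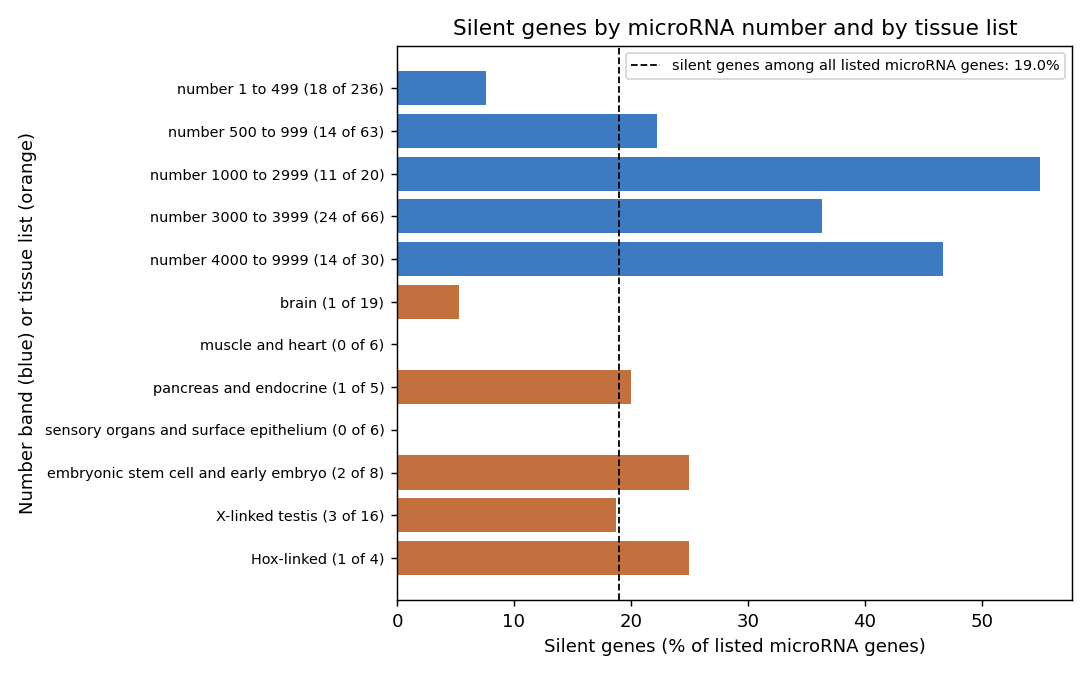
Percent of listed microRNA genes that are silent (x axis), by microRNA number (blue) and by tissue list (orange), with silent and listed counts in brackets. The dashed line at 19.0% is the 82 silent genes as a share of all 432 listed, on the same terms as the blue bars. The tissue lists hold no number that the rule leaves out, and the share over the genes that it keeps is 29.0%. Numbers below 500 lie at 7.63% and those from 1000 to below 3000 at 55.0%.

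Silent genes were also annotated more thinly and were longer. A Gene Ontology term stood beside 11 of 82 silent genes (13.4%, exact 95% interval 6.89 to 22.7%), against 210 of 333 genes above 0 (63.1%), 47.3% of those above 0 that the rule keeps and 78.2% of genes above 0 in all 12 libraries. The 11 were Mir295-1, Mir592, Mir876, Mir196a, Mir711, Mir193a, Mir1224, Mir216b, Mir764, Mir448 and Mir105. The median length of the listed gene was 99.5 bases for silent genes and 86 for genes above 0, and 41 of 82 silent genes (50.0%) were longer than 100 bases, against 22.2% of genes above 0. GC content of the hairpin was close, with medians of 51.5% and 49.8%. Folding energy, computed with RNAfold from the RefSeq hairpins, had a median of -0.405 kcal/mol per base in silent genes and -0.435 in genes above 0, with quartiles of -0.454 to -0.355 and -0.488 to -0.385 that overlap widely. Chromosome X held 12 silent genes (14.6%), against 14.1% of genes above 0.

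**Figure D4:**
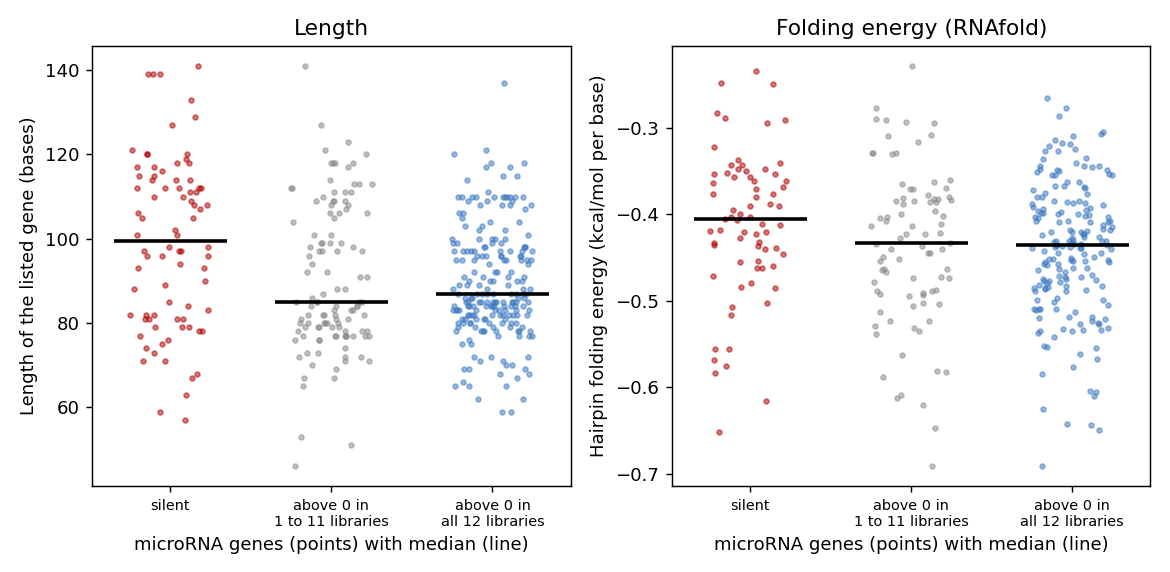
Length of the listed gene in bases (left) and hairpin folding energy in kcal/mol per base (right) for silent genes, genes above 0 in 1 to 11 libraries and genes above 0 in all 12. Points are genes and lines are medians, for length 99.5 in silent genes and 87 in genes above 0 in all 12 libraries; the spreads overlap.

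The edge of the choice is a single library. Inside it every gene is at 0, and just outside are 23 kept microRNA genes above 0 in exactly 1 library. Of these, 5 had less than 1 read (fractional counts, whose origin was not tested, the smallest 0.12), 11 had 1 read and 7 had more, up to 4 for Mir883 (18.1 FPKM, fragments per kilobase per 1000000 reads). The next highest were Mir879 and Mir871 with 3 reads each, then Mir3584, Mir3582, Mir742 and Mir196c with 2. They fell 3 in Control, 8 in CAF, 6 in DEX and 6 in CAF+DEX, and 7 of the 8 in CAF were in CAF library 1. Without that library the count of silent genes was 89. The row named Mir210, a hypoxia microRNA, had 1 read in CAF library 1. Its row (chromosome 1, 196326337 to 196326454) has the strand and length of Mir3574, which RefSeq places opposite Mir210, and not those of Mir210 itself.

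Of the 82 silent genes, 34 had no other listed row within 1 Mb. The silent genes not named above, some of which do lie within 1 Mb of another row, are Mir3099, Mir762, Mir6317, Mir3085, Mir6316, Mir6314, Mir1895, Mir2861, Mir6215, Mir1251, Mir3059, Mir1907, Mir151b, Mir7239, Mir3588, Mir6325, Mir568, Mir6323, Mir6322, Mir759, Mir1297, Mir1896, Mir3591, Mir3564, Mir6328, Mir327, Mir325 and the row ENSRNOG00000070132. Mir568 lies within Zbtb20, a transcription factor gene active in hepatocytes, on a strand that could not be compared. RefSeq hairpins were matched for 71 of the 82 by symbol, and mature strands for 68.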

How the data were processed

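Small RNA was sequenced from liver of 4 groups of rats, with 3 libraries each. Per the labels' protocols, libraries were made with a QIAseq kit whose primer carries unique molecular indices; no source here says whether these were collapsed. The submitters' processing notes name cutadapt 3.7, STAR 2.7.11b, featureCounts of Subread 2.0.6 and build rn7, without parameters. FPKM is the unit the authors deposited; multiplied by length in kilobases the values sum to 1000000 in each library, so they are relative to reads on the listed rows. Library totals were recovered as the number that turns every value into a multiple of 0.01 read (50.5 to 58.3% of values above 0 were whole reads within 0.001), and this step was tested on simulated data. Libraries of a group were not copies of each other (chi-square divided by its degrees of freedom was 40.0 to 205.6 on 175 rows).

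A row counts as a microRNA gene by its name or type. Sequences and host genes are RefSeq's (GRCr8), matched by symbol; 363 rows matched, and GRCr8 was used only for sequence, strand, length and which genes overlap. Folding energies came from RNAfold 2.7.2 with default settings. Named genes are the silent genes of the lists, those that share a seed or mature strand or lie within 10 kb of another row, and the edge genes; other names were chosen after their values were seen. The genes and lists were chosen with earlier results of these data known. No test was made on the silent genes, and the single test is an exact permutation test. Exact binomial intervals used scipy 1.17.1 at 95%. The gene opposite Mir3591 is not reported here.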

Additional observations from a re-analysis of the deposited data

How the results depend on the processing

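The number of silent microRNA genes, 82, kept within 1.5 times that value under every alternative run. It was 82 to 89 when each library was left out in turn, with the highest value without CAF library 1. It was 105 when a read in 1 library was allowed, 123 when up to 3 summed reads were allowed, 99 with no row left out and 77 with identical sequences counted once. The test of genes at 0 per library passed no threshold under any alternative: p was 0.822 with a minimum of 1 read, 0.737 without the rows that the rule leaves out, 0.274 after scaling to the shallowest library and 0.271 to 0.993 when each library was left out (exact permutation tests). No paired analysis was possible because the columns could not be matched to the replicate numbers of the sample titles. The groups were also separate sets of rats, and no source here says that equal replicate numbers mark pairs. The silent share of the X-linked testis list rose from 18.8 to 56.3% when a read in 1 library was allowed. Restricting genes above 0 to those that the rule keeps moved their share with a Gene Ontology term from 63.1 to 47.3%, and their share within 10 kb of another row from 45.3 to 28.9%. List shares on few genes also moved: allowing a read in 1 library took the Hox-linked list from 25 to 50.0% and the embryonic list from 25 to 37.5%, and counting identical sequences once took the latter to 14.3%. The exact 95% intervals of these lists (0.631 to 80.6% and 3.19 to 65.1%) are too wide to show stability. Depth limits all of this: a gene below 0.0789 per 1000000 reads over all libraries cannot be told from an absent one.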
